A study of Mus musculus with 3 samples.

Results

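The genes described here are 10 genes of MHC class II antigen presentation and costimulation, taken by gene symbol from the 32285 genes counted in glomerular cells of mouse kidneys. They are the class II chains *H2-Aa*, *H2-Ab1* and *H2-Eb1*, the peptide exchange genes *H2-DMa* and *H2-DMb1*, the invariant chain *Cd74*, the transactivator *Ciita* and the costimulation genes *Cd40*, *Cd80* and *Cd86*. All 10 were found once in every library. Their levels were followed across cell classes, in lupus nephritis and after treatment with hUC-MSCs, mesenchymal stem cells of human umbilical cord. There were 3 libraries of droplet single-cell RNA sequencing, in which each RNA molecule carries a unique molecular identifier (UMI). One library was of MRL/lpr mice without treatment, which carry the lpr mutation of *Fas* and develop lupus nephritis spontaneously. They entered the study at about 16 weeks of age. A second library was of MRL/lpr mice given 800000 hUC-MSCs into the tail vein, and both MRL/lpr libraries were from day 21. The third library was of control mice, which the labels call Control Blank and for which the strain and age are not given for this experiment in the sources used here. The number of mice behind a library is not given either. With 1 library per group the spread between mice is unknown, so no difference was tested, and disease cannot be told apart from strain, age or library preparation.

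MHC class II molecules present peptides from the endosome to CD4 T cells. An alpha and a beta chain form the peptide groove, the invariant chain Cd74 occupies it until the endosome is reached, and the H2-DM heterodimer exchanges the remaining fragment for peptide. Transcription of these genes depends on Ciita, which joins RFX, CREB and NF-Y factors on a shared promoter module and can be induced by interferon gamma. Dendritic cells, B cells and macrophages are the professional presenting cells and also carry Cd80 and Cd86, the ligands of Cd28 and Ctla4, and Cd40, the receptor of the T cell ligand Cd40lg. Endothelial and tubular epithelial cells can acquire class II in inflamed kidneys.

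The chain genes lie together on chromosome 17, at 34282744 to 34287823 for *H2-Aa* on the minus strand, 34257689 to 34269419 for *H2-Ab1* and 34305867 to 34316674 for *H2-Eb1* on the plus strand (GRCm38, GENCODE M21). *H2-DMa* (34119541 to 34139101) and *H2-DMb1* (34153072 to 34160230) lie in the same region, *Ciita*, *Cd80* and *Cd86* on chromosome 16 and *Cd40* on chromosome 2. All are protein-coding. RefSeq promoter windows of GRCm38.p6, from 250 bases before to 50 bases after a gene's start, were matched for 5 of the 10 genes, *H2-Aa*, *H2-Eb1*, *H2-DMa*, *H2-DMb1* and *Cd80*. The stretches of the promoter module of an alpha and a beta chain gene are shown because both chains differed between libraries in cells outside the myeloid class. Capitals mark the letters GCAACT and, nearer to the gene, GATTGG, the core of a Y box.
H2-Aa: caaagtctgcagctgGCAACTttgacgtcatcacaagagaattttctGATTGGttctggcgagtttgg
H2-Eb1: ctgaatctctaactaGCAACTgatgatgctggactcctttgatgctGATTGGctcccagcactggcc
The first stretch is chr17:34287852-34287919 on the minus strand and the second chr17:34305761-34305827 on the plus strand, each printed 5′ to 3′ as the gene is read. The first capitals begin 81 and 91 bases before the gene's start, and 26 and 25 bases separate both motifs. GNAACT followed after 20 to 30 bases by GATTGG, a pattern read from these promoters, was searched on both strands of every window. It was found for *H2-Aa*, *H2-Eb1* and *H2-DMb1*, and in 67 of 32851 windows in all (0.204%). GATTGG alone was in 16.1% of windows. These matches describe the letters only.

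Cells were barcodes with at least 1000 UMIs and at most 10% mitochondrial UMIs, which left 14109 of 15015 barcodes in untreated MRL/lpr mice, 16586 of 16860 after treatment and 11018 of 11555 in control mice. Each of these sets is larger than the approximate number of captured cells that the paper's methods give. Total UMIs per library were 90812138 to 103319588, and median UMIs per cell were 3716, 2727 and 5069. Each cell was placed in a class when it passed the marker gate of that class alone, and cells passing several gates, 7.22% to 12.3% of a library, were left out as possible doublets. There were 2196, 3494 and 118 myeloid-like cells in untreated MRL/lpr, treated and control mice, 4447, 5562 and 5825 endothelial-like, 1614, 1621 and 958 mesangial-like, 959, 228 and 2390 podocyte-like, 551, 90 and 54 proximal tubule-like and 183, 68 and 107 distal tubule-like cells. Of 5 check markers per class that the gates did not use, 4 or 5 were highest in their own class in every library. Pairs of libraries shared 35 to 61 cell barcodes. Levels are the UMIs of a gene in a class for every 1000000 UMIs of any gene there (CPM). The intervals are exact 95% intervals that cover counting error only. RNA released from broken cells enters every droplet, and its profile was read from barcodes with 1 to 100 UMIs. It was estimated to make up 8.44% to 18.0% of the UMIs of a class in MRL/lpr mice and 2.67% to 4.71% in control mice.

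Myeloid-like cells had the highest level of the class II chains among the 6 classes in every library. Summed over *H2-Aa*, *H2-Ab1* and *H2-Eb1*, the level was 5754 CPM without treatment, 3292 after it and 5052 in control mice. Endothelial-like cells had 536, 589 and 79.1 CPM, and proximal tubule-like cells 713, 1422 and 64.0. *Cd74* was also highest in myeloid-like cells, with 7417, 4881 and 8853 CPM, and had 1056, 1141 and 25.6 in endothelial-like cells and 2084, 4487 and 134 in proximal tubule-like cells. Control mice thus stood far below both MRL/lpr libraries in the last 2 classes and not in myeloid-like cells. Professional presenting B cells were rare, with 13, 15 and 8 cells, and had *Cd74* levels of 9279, 11983 and 22266 CPM.

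**Figure D1:**
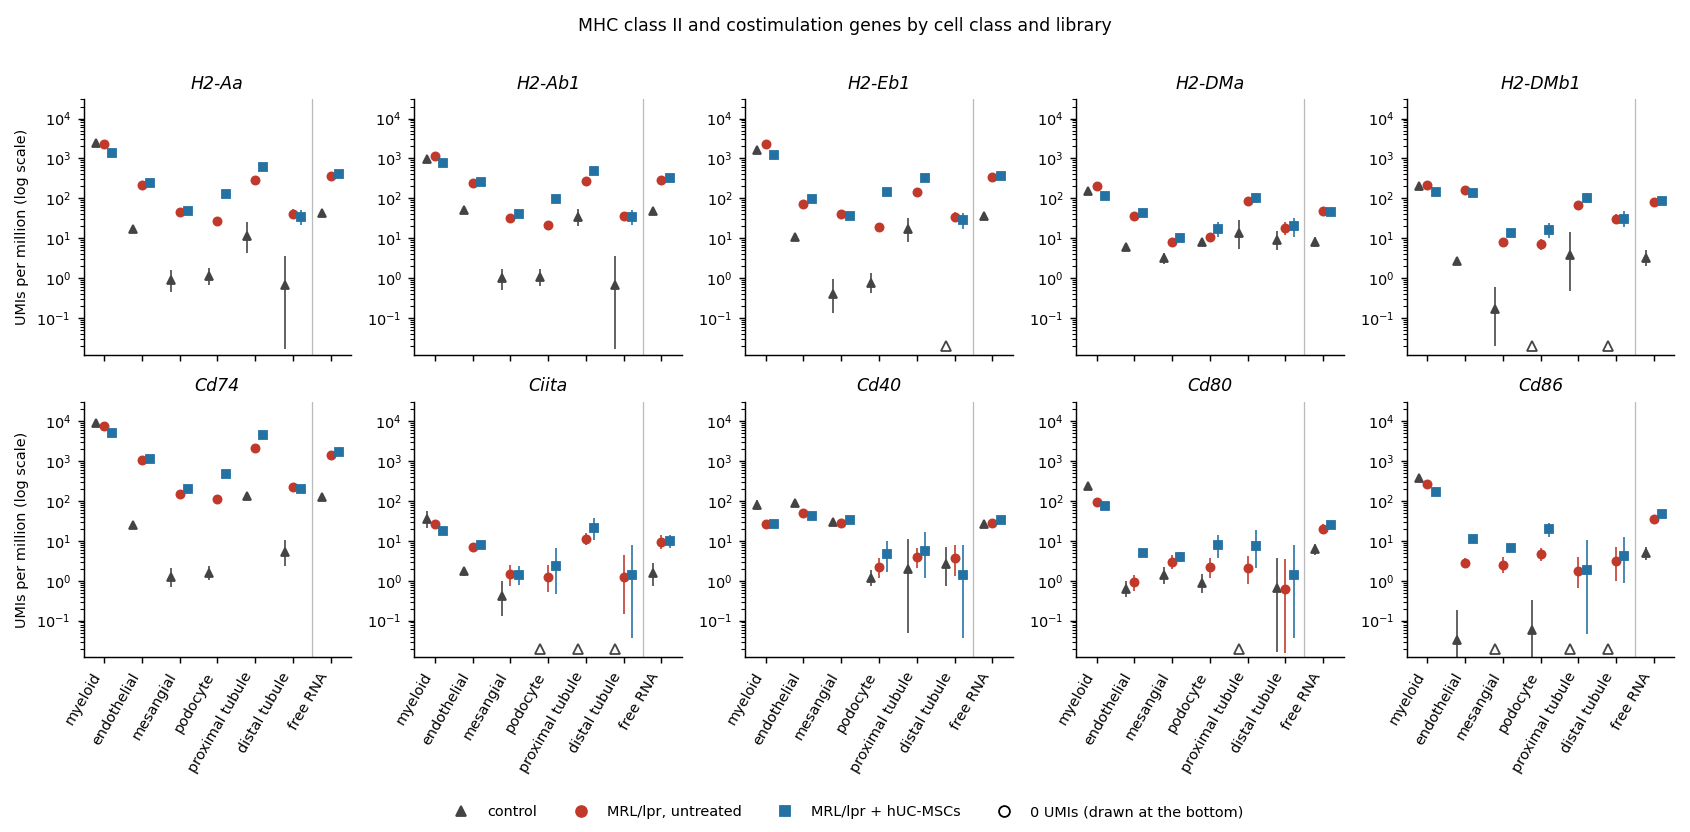
Levels of the 10 genes (CPM, log scale) in 6 cell classes and in free RNA of the control, untreated MRL/lpr and treated MRL/lpr libraries, with exact 95% Poisson intervals; open symbols at the bottom are 0 UMIs. Control points of the chains and *Cd74* lie far below both MRL/lpr points outside myeloid-like cells, those of *H2-DMa* less so in podocyte-like and distal tubule-like cells, and *Cd40* stands apart with its highest control level, 87.8 CPM, in endothelial-like cells.

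Of the *Cd74* UMIs in all cells of untreated MRL/lpr mice, 57.0% were in myeloid-like (95% interval 56.8 to 57.3), 15.8% in endothelial-like and 5.00% in proximal tubule-like cells. In treated mice these shares were 49.9%, 19.7% and 1.83%, and in control mice 60.1%, 9.17% and 0.825%. *Cd40* was distributed differently, with 48.6%, 42.8% and 75.3% of its UMIs in endothelial-like cells and 13.1%, 15.7% and 1.32% in myeloid-like cells of untreated, treated and control mice. Fewer cells and less RNA per cell both lower such a share.

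In endothelial-like cells of untreated MRL/lpr mice over control mice, 8 of the 10 genes were at least 2-fold higher and none was 2-fold lower. All 10 had at least 20 UMIs over both libraries, and among all genes with as many UMIs 12.6% were at least 2-fold higher. The summed chains had a log2 ratio of 2.76 (95% interval 2.70 to 2.82), with 11252 against 2373 UMIs. *H2-Aa* was at 221 against 16.9 CPM, a log2 ratio of 3.71 (3.58 to 3.84). *H2-Eb1* had a log2 ratio of 2.75 and *H2-Ab1* one of 2.24, from a control level of 51.5 CPM. *H2-Ab1* was therefore the most abundant chain of control endothelium, with 3.04 UMIs per UMI of *H2-Aa* (2.75 to 3.37), against 1.1 in untreated MRL/lpr mice.

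Of the accessory genes, *Cd74* and *H2-DMb1* had larger ratios than every chain. *Cd74*, which lies apart on chromosome 18, was at 1056 against 25.6 CPM (22196 against 767 UMIs), a log2 ratio of 5.37 (5.27 to 5.48). *H2-DMb1*, the beta chain of the peptide exchange heterodimer, was at 162 against 2.77 CPM, a log2 ratio of 5.87 (5.56 to 6.20). Its partner *H2-DMa* differed less, with 36.5 against 6.13 CPM and a log2 ratio of 2.57 (2.34 to 2.81). The ratio of *H2-DMb1* to *H2-DMa* UMIs in endothelial-like cells was thus 4.44 (4.10 to 4.81) without treatment, 3.23 (3.0 to 3.47) with it and 0.451 (0.344 to 0.588) in control mice. In myeloid-like cells it was 1.1, 1.29 and 1.30, and in free RNA 1.70, 1.84 and 0.404. *Ciita*, the transactivator, was at 7.19 against 1.73 CPM, a log2 ratio of 2.05 (1.59 to 2.54).

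The costimulation genes had a different pattern in endothelial-like cells. *Cd40* was lower in untreated MRL/lpr than in control mice, with 50.1 against 87.8 CPM and a log2 ratio of -0.81 (-0.91 to -0.71). *Cd80* was near the limit of detection, with 19 UMIs in each library and a log2 ratio of 0.51 (-0.48 to 1.51). *Cd86* had 60 UMIs against 1, a log2 ratio of 6.42 (3.89 to 11.7). Endothelial-like cells of untreated MRL/lpr mice therefore had class II and *Cd40* but *Cd80* and *Cd86* at 0.904 and 2.86 CPM, against 94.1 and 261 in myeloid-like cells.

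**Figure D2:**
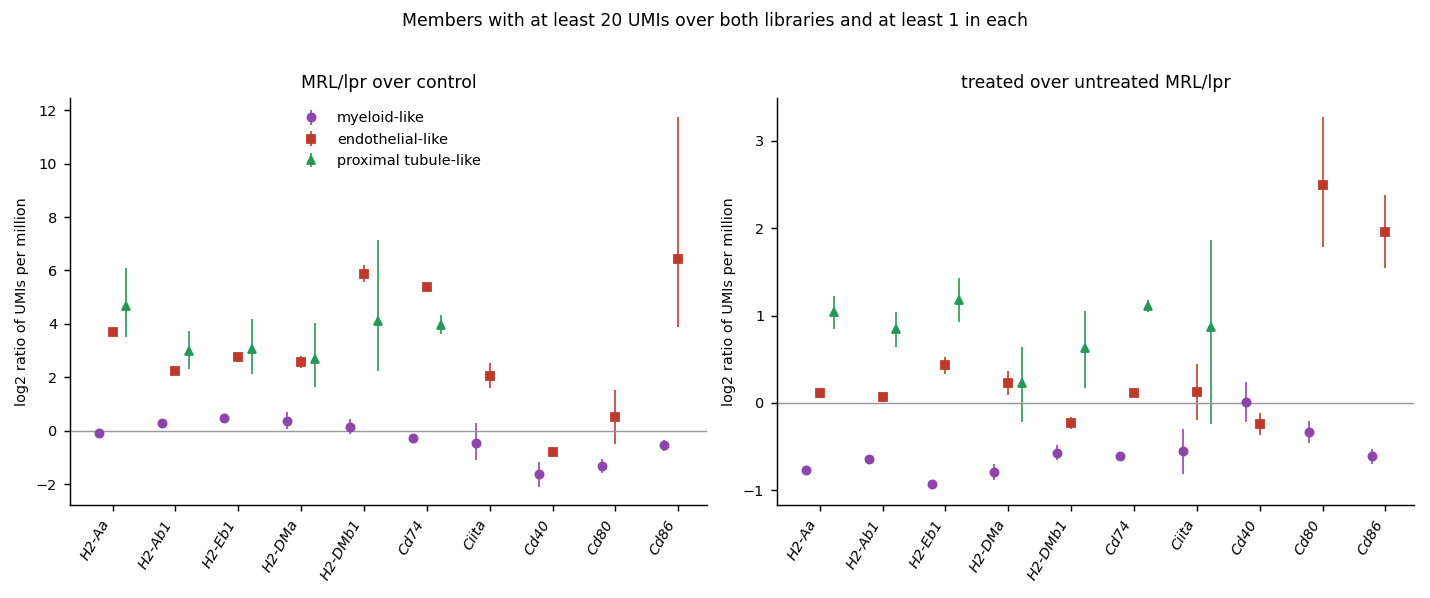
Log2 ratios of CPM with exact 95% intervals for MRL/lpr over control (left) and treated over untreated MRL/lpr (right) in myeloid-like, endothelial-like and proximal tubule-like cells; genes with fewer than 20 UMIs over both libraries or none in one are not drawn. On the left the class II genes are high in endothelial-like and proximal tubule-like cells, with *Cd74* at 5.37 and 3.96, and near 0 in myeloid-like cells; on the right the myeloid-like points lie below 0 except *Cd40*, and the proximal tubule-like points above 0.

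Since myeloid cells were many in MRL/lpr mice and few in control mice, the levels were set beside free RNA and beside the 5 myeloid check markers *Tyrobp*, *Fcer1g*, *Ctss*, *Laptm5* and *Cybb*. In endothelial-like cells all 5 were higher in untreated MRL/lpr than in control mice, and none was at 0 in either. Their summed level was 163 against 11.9 CPM. Relative to free RNA of the same library, these markers were at 0.0759 times in untreated MRL/lpr mice, while *H2-DMb1* was at 1.99 times (95% interval 1.74 to 2.28), *Cd40* at 1.78, *H2-Ab1* at 0.861, *H2-DMa* at 0.761, *Cd74* at 0.745, *H2-Aa* at 0.618 and *H2-Eb1* at 0.209. *Cd80* and *Cd86*, at 0.0457 and 0.0799 times, stood at the height of the myeloid markers. Markers of B cells were at 0.341 times. The dendritic cell markers were above free RNA in both libraries. They summed to 115 CPM against 81.2 in free RNA in untreated MRL/lpr mice, and 101 against 47.2 in control mice. Control endothelial-like cells held 3039 UMIs of these markers, and the few control myeloid-like cells held 82. The sum was therefore not read as dendritic cell RNA, and its source was not tested.

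*Cd74* was also set against the summed myeloid check markers within each class. Free RNA of untreated MRL/lpr mice had 0.661 *Cd74* UMIs per UMI of these markers (95% interval 0.636 to 0.688) and myeloid-like cells 0.575 (0.570 to 0.580). Endothelial-like cells had 6.49 (6.26 to 6.73) and proximal tubule-like cells 14.7 (13.4 to 16.1). Mesangial-like cells had 0.782 (0.725 to 0.844) and podocyte-like cells 1.04 (0.930 to 1.15). In treated mice the ratio was 1.82 (1.78 to 1.86) in endothelial-like, 7.77 (6.90 to 8.78) in proximal tubule-like, 0.400 (0.380 to 0.421) in mesangial-like and 0.886 (0.793 to 0.991) in podocyte-like cells, against 0.510 (0.493 to 0.527) in free RNA and 0.335 in myeloid-like cells. The ratio was thus highest in proximal tubule-like and then in endothelial-like cells in both MRL/lpr libraries, and in mesangial-like cells it was above that of free RNA without treatment and below it with treatment. In control mice it was 2.15 (1.90 to 2.45) in endothelial-like cells, 0.955 in free RNA and 0.906 in myeloid-like cells, so that a higher ratio in endothelium was not particular to MRL/lpr mice. For *Cd86* the ratio was 0.0175 in endothelial-like cells (0.0134 to 0.0226), 0.0167 in free RNA (0.0136 to 0.0203) and 0.0202 in myeloid-like cells (0.0195 to 0.0210), with intervals that overlap. In endothelial-like cells without any UMI of the 5 markers, 2841 in untreated MRL/lpr and 5613 in control mice, the log2 ratio of the chains was 2.76, as large as in all cells. Cells without these UMIs can still hold free RNA, which enters every droplet, so this split cannot tell its part. Leaving out the cells with these UMIs was chosen after seeing the data.

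**Figure D3:**
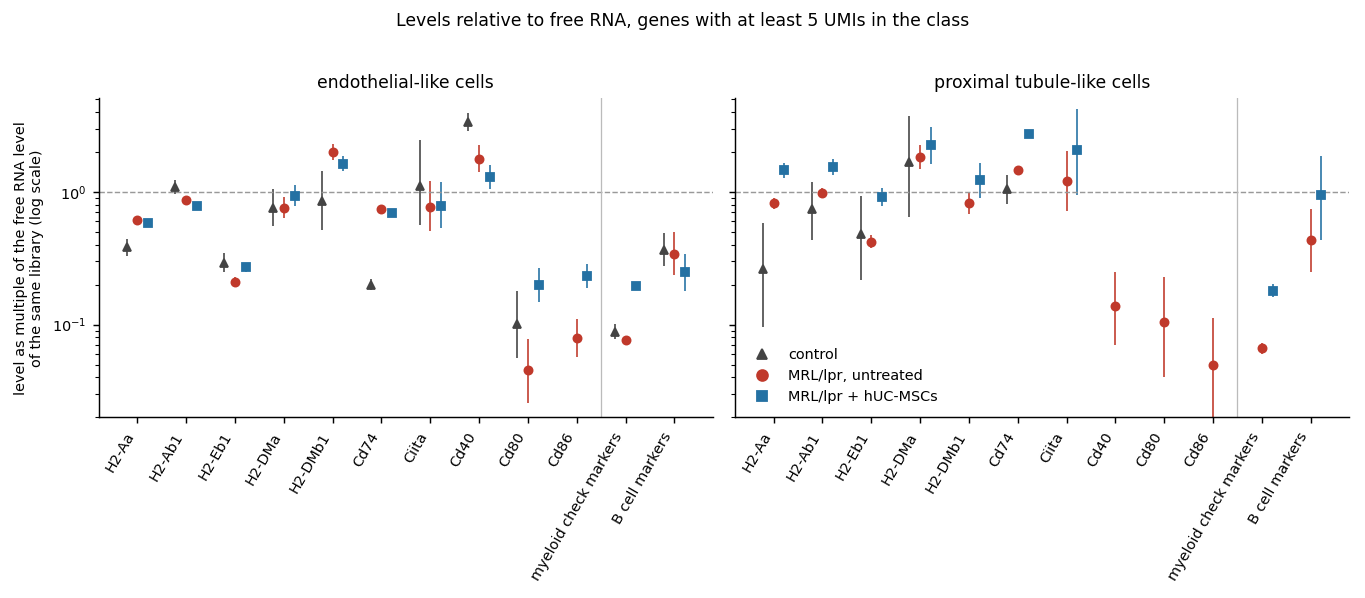
Levels in endothelial-like (left) and proximal tubule-like cells (right) as multiples of the level in free RNA of the same library (log scale, exact 95% intervals, genes with at least 5 UMIs in the class). Myeloid check markers lie at 0.0759 and 0.0663 times free RNA in untreated MRL/lpr mice, and *Cd80* and *Cd86* lie near them; *Cd74* lies at 0.745 and 1.47 times, and *H2-DMb1* of endothelial-like cells at 1.99.

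The share of cells with a UMI showed the same order. After each cell was thinned to 1000 UMIs, which left out no cell, *Cd74* was found in 46.5% of endothelial-like cells of untreated MRL/lpr mice (95% interval 45.1 to 48.0) and 2.03% of those of control mice. In podocyte-like cells, taken for comparison because their *Cd74* level was low, 0.0772 times that of free RNA in untreated MRL/lpr mice, the shares were 14.6% and 0.0837%. Without thinning they were 73.3% and 5.30% in endothelial-like cells, with median depths of 3711 and 4286 UMIs, and 41.0% and 0.837% in podocyte-like cells, with depths of 6808 and 6676.5. For *H2-DMb1* the thinned share was 14.6% in endothelial-like and 1.56% in podocyte-like cells of untreated MRL/lpr mice. *Cd40* was found in 8.07% of control endothelial-like cells and in 0.0837% of control podocyte-like cells, and in 4.41% and 0.313% of the untreated MRL/lpr cells. Unthinned, *Cd40* was seen in 31.5% of control and 18.6% of untreated MRL/lpr endothelial-like cells.

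The endothelial signal was uneven among cells. Of 4447 endothelial-like cells of untreated MRL/lpr mice, 629 (14.1%) had 3 or more *Cd74* UMIs at 1000 UMIs per cell and 2378 had none. Compared with the latter, the former had log2 ratios of 2.36 for *H2-Eb1* (95% interval 1.97 to 2.76), 2.00 for *H2-Aa*, 1.98 for *H2-DMa*, 1.59 for *H2-DMb1* and 1.45 for *H2-Ab1*. The class II genes were thus high in the same cells. *Cd40* had 0.25 (-0.38 to 0.83), an interval that includes 0. The myeloid genes *Tyrobp*, *Lyz2* and *Fcer1g* had 0.36 (-0.18 to 0.87), 0.30 (-0.18 to 0.76) and 0.46 (0.03 to 0.88). In treated mice they had 0.17 (-0.10 to 0.44), 0.41 (0.18 to 0.63) and 0.21 (-0.02 to 0.43), and *Ctss* had 0.33 (0.05 to 0.60), against 0.66 (-0.11 to 1.39) in untreated mice. Their part in the class II ratios was not tested. In untreated mice *Pecam1*, an endothelial adhesion molecule, had 0.03. Since these cells belong to 1 library, they are not replicates.

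Cells high in *Cd74* also differed in endothelial genes that the split did not use, which were chosen after the data were seen. *Plvap*, a protein of fenestral and caveolar diaphragms that marks endothelium outside the mature glomerular capillary, had a log2 ratio of 2.44 (95% interval 1.96 to 2.92). *Vcam1*, a leukocyte adhesion molecule, had 1.60 (1.43 to 1.77) and *Cd274*, the ligand PD-L1, 0.70 (0.46 to 0.94). *Ehd3*, a gene of glomerular endothelium, and *Kdr*, a VEGF receptor, were lower, with -0.72 and -0.48. *Irf1*, a transcription factor of the interferon response, had -0.02 (-0.13 to 0.09). In treated mice, with 848 such cells against 2511, the same ratios were 1.92 for *H2-Eb1*, 1.68 for *H2-Aa*, 1.97 for *Plvap*, 0.55 (0.40 to 0.70) for *Vcam1* and 0.43 (0.21 to 0.65) for *Cd274*. That of *Vcam1* was thus well below its value in untreated mice.

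**Figure D4:**
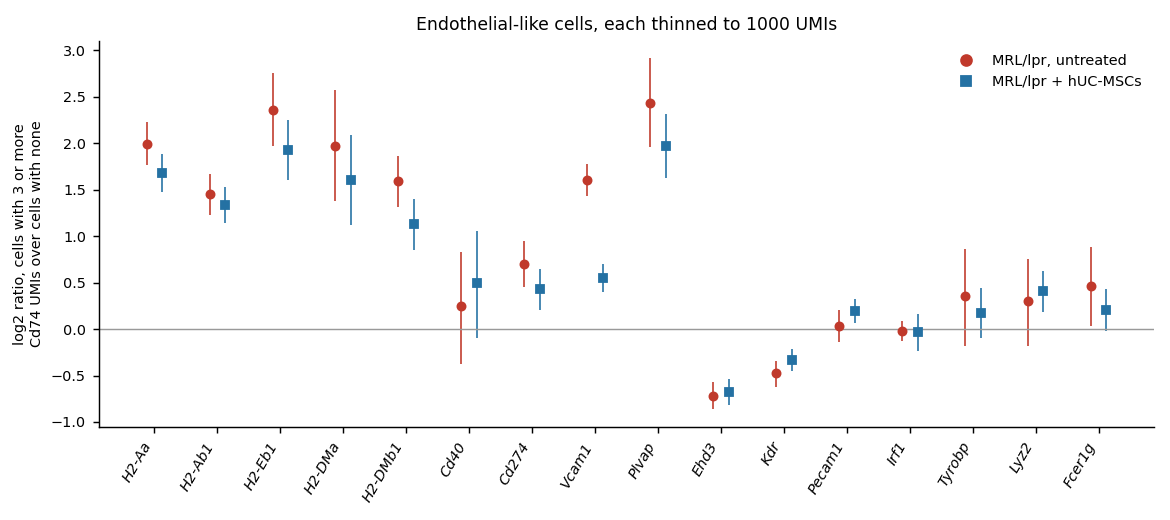
Log2 ratios, with exact 95% intervals, of genes in endothelial-like cells with 3 or more *Cd74* UMIs over cells with none, after thinning each cell to 1000 UMIs, in untreated and treated MRL/lpr mice. The other class II genes, *Plvap* and *Vcam1* lie above 0, *Ehd3* and *Kdr* below, and *Irf1* and *Cd40* have intervals that include 0 in both libraries.

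The same association is given as levels by splitting cells on *Plvap* and *Ehd3*, which adds no independent evidence. Among untreated MRL/lpr endothelial-like cells, the 151 with a *Plvap* UMI and no *Ehd3* UMI had *Cd74* at 2091 CPM (95% interval 1996 to 2188), and the 3458 with *Ehd3* alone had it at 851 (836 to 865). In treated mice the levels were 2141 in 315 cells and 935 in 3702 cells. In control mice the order was the reverse, with overlapping intervals, at 12.4 (5.69 to 23.6) in 144 cells and 19.0 (17.3 to 20.7) in 5018 cells. Cells with *Ehd3* alone therefore held most of the class and were far above control too. *Cd40* went the other way in untreated MRL/lpr mice, with 32.8 CPM (22.0 to 47.1) in the *Plvap* cells and 49.9 (46.5 to 53.5) in the *Ehd3* cells. Both intervals overlap.

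Among genes upstream of class II or acting with it, taken from lists, most were not 2-fold apart in endothelial-like cells of untreated MRL/lpr and control mice. *Irf1*, which carries the interferon gamma signal to *Ciita*, was at 1446 against 1914 CPM. Of 7 promoter-binding partners of *Ciita*, 0 were 2-fold apart. Of all genes 12.6% were 2-fold higher and 5.79% were 2-fold lower in this class. *H2-DMb2*, a second H2-DM beta chain gene that is a close copy of *H2-DMb1*, had 200 UMIs against 1, and how the authors' counting divided reads between both copies was not tested. Of 2 ligases of class II turnover *March1* was 2-fold higher, with 2.47 against 0.533 CPM, where free RNA of untreated MRL/lpr mice had 194. Of 6 endosomal processing genes only *Ctss*, which is also among the myeloid check markers, was 2-fold higher, with 26.7 against 2.17 CPM. Among the 4 of 8 other ligands of T cell receptors with enough UMIs, *Cd274* (245 against 77.0 CPM), *Icosl* and *Pdcd1lg2* were 2-fold higher and *Tnfsf9* was 2-fold lower. *Pdcd1lg2* had 19 against 5 UMIs, at 0.904 CPM in untreated MRL/lpr mice against 11.8 in their free RNA. *Cd28*, *Ctla4* and *Icos*, receptors on T cells and the 3 of 5 with enough UMIs, were 2-fold higher at 1.95 to 3.28 CPM, or 0.225 to 0.394 times free RNA in untreated MRL/lpr mice. There were 899 T or NK cell-like cells in that library and 162 in control mice, and their part in this was not tested. These lists were chosen with earlier results known.

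Proximal tubule-like cells had high class II too, in few cells. In untreated MRL/lpr mice over control mice, 6 of the 7 genes with at least 20 UMIs were at least 2-fold higher, and 20.3% of all genes tested were. Control UMIs of these 6 genes were 2 to 69, so most reached 20 UMIs through MRL/lpr mice. The median log2 ratio of all genes was 0.29 in this class. The chains had 2410 against 33 UMIs and a log2 ratio of 3.48 (2.98 to 4.02), or 3.19 above that median, and *Cd74* one of 3.96 (3.62 to 4.33). *Ciita* had 38 UMIs against 0, which is 1.93-fold higher if the 0 is set to 3 counts over the class. The exact interval of its log2 ratio began at 0.583. The 5 myeloid check markers were at 142 CPM, or 0.0663 times free RNA, in untreated MRL/lpr mice, and all 5 were at 0 in control mice. *Cd74* was at 1.47 times free RNA (1.41 to 1.53), *H2-DMa* at 1.84, *H2-Ab1* at 0.980 and *H2-DMb1* at 0.820. Thinned shares of cells with *Cd74* were 66.4% in untreated MRL/lpr mice (62.3 to 70.4) and 5.56% in control mice (1.16 to 15.4). In untreated MRL/lpr mice, 140 thinned cells with 3 or more *Cd74* UMIs were set against 185 with none. *Lyz2* had a log2 ratio of 1.485 (0.615 to 2.409), *Fcer1g* 0.955 (-0.058 to 2.006) and *Tyrobp* 0.789 (-0.339 to 1.952). The tubule genes *Lrp2* and *Slc34a1* had -0.529 (-0.849 to -0.214) and 0.119 (-0.129 to 0.366). In treated mice, with 34 against 19 cells, *Fcer1g* had -1.468 (-2.708 to -0.289), *Slc34a1* 1.267 (0.379 to 2.263) and *Lrp2* 1.035 (-0.312 to 2.627). *H2-Eb1* had 2.125 in untreated and 2.035 (0.300 to 4.419) in treated mice. *H2-Aa* and *H2-Ab1* had 2.328 and 1.943 in untreated mice. In treated mice they had 0.745 (-0.788 to 2.560) and 0.231 (-0.919 to 1.481), intervals that include 0. The part of myeloid RNA was not tested. *Irf1* was 2-fold higher in this class, with 142 against 36.8 CPM. Of 6 endosomal processing genes 3 were 2-fold higher, *Ctsb* and *Ifi30*, which were at 0.91 and 0.75 on the log2 scale above the median of all genes, and *Ctss*, a myeloid check marker. Of 6 partners of *Ciita* 2 were, *Creb1* with a log2 ratio of 1.44 (0.17 to 3.10) and *Nfya* with 1.75 (-0.19 to 4.84), from 5 and 2 control UMIs.

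The proportions of the genes differed between tubule and endothelium. Proximal tubule-like cells had 7.12 *Cd74* UMIs per UMI of *H2-Aa* in untreated MRL/lpr mice (95% interval 6.66 to 7.62), against 4.77 (4.62 to 4.93) in endothelial-like cells. *H2-DMb1* per *H2-DMa* was 0.758 (0.634 to 0.904) against 4.44 in endothelial-like cells. *Cd40* was at 3.85 CPM in proximal tubule-like cells, *Cd80* at 2.07 and *Cd86* at 1.78, and all of these were below their level in free RNA.

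Mesangial-like, podocyte-like and distal tubule-like cells had large ratios at low levels. In untreated MRL/lpr mice *Cd74* was at 147 CPM in mesangial-like, 109 in podocyte-like and 229 in distal tubule-like cells, against 1.24, 1.56 and 5.32 in control mice. Counted genes at least 2-fold higher were 8 of 9 in mesangial-like cells (10.7% of all genes), 7 of 9 in podocyte-like cells (10.9%) and 5 of 6 in distal tubule-like cells (12.2%). Beside these counts, myeloid check markers were at 188 against 41.9, 106 against 2.88 and 185 against 14 CPM, with 5 of 5 higher in each class and 1, 0 and 2 of them at 0 in control mice. *Cd74* in free RNA was at 1417 against 128 CPM. The part of myeloid or free RNA in these 3 classes was not tested. The counted genes that were not 2-fold higher were *Cd40* in mesangial-like cells, with 28.6 against 29.4 CPM and a log2 ratio of -0.04 (-0.29 to 0.20), *H2-DMa* and *Cd40* in podocyte-like cells, with 0.42 (-0.02 to 0.85) and 0.85 (-0.24 to 1.91), and *H2-DMa* in distal tubule-like cells, with 0.94 (-0.03 to 1.97).

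In myeloid-like cells, untreated MRL/lpr and control mice had similar summed class II levels, spread over different shares of the cells, and *Cd40* and *Cd80* were lower in the former. The chains had a log2 ratio of 0.19 (95% interval 0.13 to 0.24) and *Cd74* one of -0.26 (-0.30 to -0.21). After thinning, *Cd74* was found in 78.9% of cells in untreated MRL/lpr mice, with a median of 4 UMIs, and in 46.6% in control mice, with a median of 0. *H2-Aa* was found in 51.8% and 24.6%, and the top 10% of cells held 44.2% and 75.5% of its UMIs. Unthinned, *Cd74* was in 92.5% and 57.6% of cells, at median depths of 4234.5 and 4041.5. The control level was thus held by fewer cells. *Cd40*, at 26.1 against 81.0 CPM, had a log2 ratio of -1.63 (-2.09 to -1.15). *Cd80*, at 94.1 against 234, had -1.32 (-1.58 to -1.05), and *Cd86*, at 261 against 380.5, had -0.54 (-0.74 to -0.34). Both *Cd40* and *Cd80* were thus more than 2-fold lower, as were 8.87% of all genes tested, and of the 10 genes no other was. Of 6 listed endosomal processing genes 1 was 2-fold higher, the protease *Ctsd* with 498 against 169 CPM, as were 12.4% of all genes. Of 5 other ligands of T cell receptors with enough UMIs 2 were 2-fold lower, *Tnfsf9* with a log2 ratio of -3.76 (-4.38 to -3.13) and *Icosl* with -1.01 (-2.48 to 0.94), where 4 control UMIs leave an interval that includes 0. Of 3 other class II region genes 2 were 2-fold lower, *H2-DMb2*, with 162 against 17 UMIs and an interval of -1.73 to -0.19 on the log2 scale, and *H2-Oa*, with 3 control UMIs, with a log2 ratio of -1.32 (-3.04 to 1.06). The class held 118 control cells against 2196.

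The mix of myeloid-like cells differed between libraries, and class II differed between its subsets. By their own markers, 77 cells of untreated MRL/lpr mice were dendritic-like, 40 were macrophage-like with *Trem2* and *Gpnmb*, 307 macrophage-like with *Cd5l*, 197 monocyte-like with *Ly6c2* and *Ccr2*, 481 monocyte-like with *Cd300e*, and 1094 joined no subset. The chains were at 8365 CPM in dendritic-like, 7730 in *Trem2*, 11033 in *Cd5l*, 4602 in *Ly6c2* and 1260 in *Cd300e* cells. *Cd300e* monocyte-like cells, the lowest in class II, had the highest *Cd86*, at 338 CPM (312 to 365), and *Trem2* cells the lowest, at 122 (86.2 to 169). *Cd5l* cells, the highest in class II, had *Cd86* at 306 CPM (283 to 331), an interval that overlaps that of *Cd300e* cells. In control mice *Cd86* was at 621 CPM (422 to 881) in dendritic-like and 390 (285 to 520) in *Cd300e* cells. Control mice had 6 dendritic-like cells, with chains at 19591 CPM (18382 to 20858) and 978 of the 2868 chain UMIs of the class, 27 *Ly6c2* and 34 *Cd300e* cells, and no cell of either macrophage subset. Within *Ly6c2* cells the chains were at 4602 against 1462 CPM, a log2 ratio of 1.66 (1.46 to 1.85), and within *Cd300e* cells at 1260 against 407, a log2 ratio of 1.63 (1.22 to 2.08). In cells of no subset it was -0.39 (-0.47 to -0.32), with a chain UMI in 856 of 1094 cells of untreated MRL/lpr mice and 16 of 51 of control mice. The chains of MRL/lpr mice were thus higher in both monocyte subsets and lower in dendritic-like cells and in cells of no subset. The higher values rest on 10 *Ly6c2* and 6 *Cd300e* control cells with the chains, and the lower values on 5 and 16. Relative to free RNA of the same library, the chains of *Cd300e* cells were at 1.28 times in untreated MRL/lpr and 3.18 in control mice. Those of *Ly6c2* cells were at 4.69 and 11.4 times. Dendritic-like cells of untreated MRL/lpr mice also had the macrophage genes *C1qa*, at 2514 against 1142 CPM in control mice, and *Lyz2*, at 4697 against 1783, and the part of macrophages in them was not tested. Subset levels of *Cd40* went the other way, with log2 ratios of -1.32 and -1.84 in *Ly6c2* and *Cd300e* cells.

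**Figure D5:**
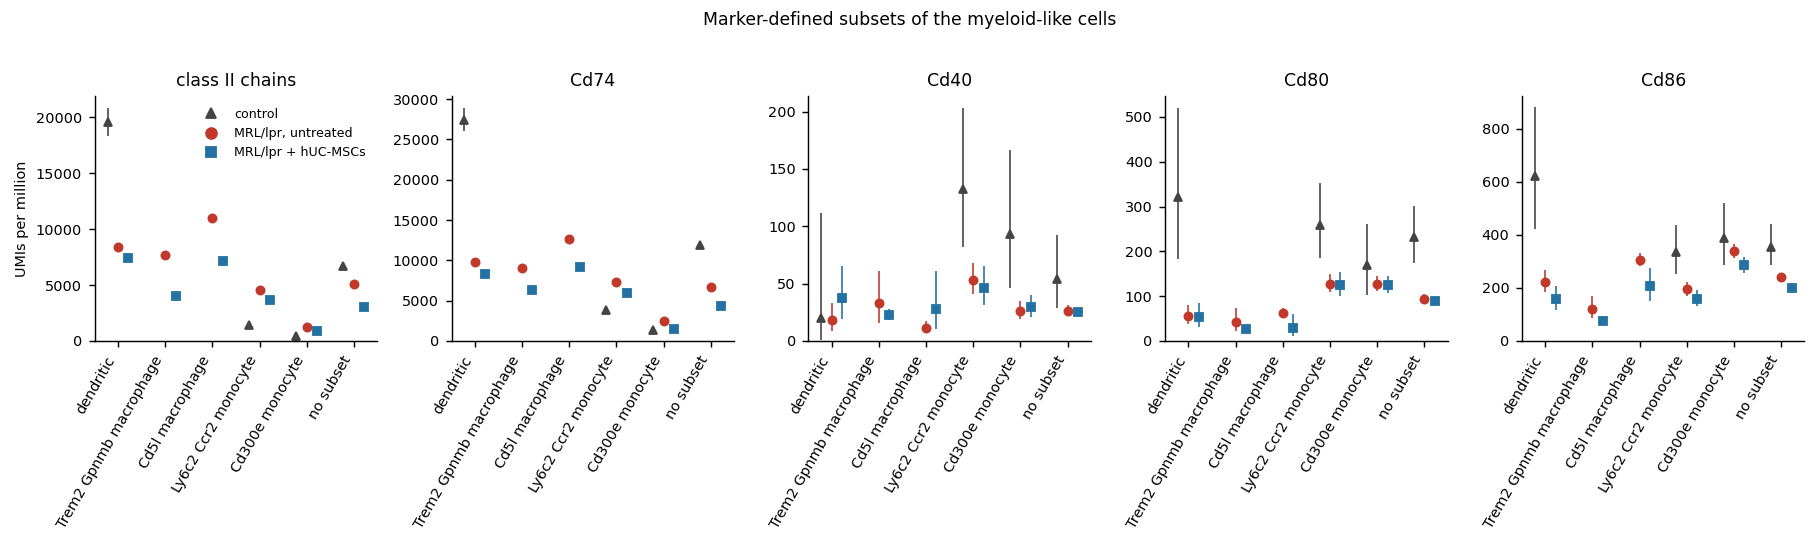
CPM, with exact 95% Poisson intervals, of the summed class II chains, *Cd74*, *Cd40*, *Cd80* and *Cd86* in subsets of the myeloid-like cells; control mice had no cells in the macrophage subsets and 6 dendritic-like cells. Treated points lie below untreated points for the chains and *Cd74* in every subset, and *Cd300e* monocyte-like cells have the lowest chains, at 1260, 865 and 407 in untreated, treated and control mice.

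The comparison of treated with untreated MRL/lpr mice shares its untreated library with the comparison above. In myeloid-like cells the chains were at 3292 against 5754 CPM, a log2 ratio of -0.81 (95% interval -0.82 to -0.79). *H2-Eb1* had the lowest ratio, -0.93 (-0.96 to -0.90), then *H2-DMa* -0.79, *H2-Aa* -0.77, *H2-Ab1* -0.65, *Cd86* -0.61, *Cd74* -0.60, *H2-DMb1* -0.57, *Ciita* -0.56 and *Cd80* -0.33. *Cd40* was at 26.3 against 26.1 CPM, a log2 ratio of 0.01 (-0.22 to 0.24). None of the 10 genes was 2-fold lower, and 5.44% of all genes were. Of the listed genes, 2 of 6 endosomal processing genes were 2-fold higher in the same cells, the proteases *Ctsb* with 4366 against 2147 and *Ctsd* with 1662 against 498 CPM. *H2-Eb2*, 1 of 4 other class II region genes, was also 2-fold higher, with 37 against 13 UMIs, and 3.25% of all genes were.

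The *Trem2* macrophage-like cells numbered 668 in treated and 40 in untreated mice, and *Cd5l* macrophage-like cells 35 and 307. The chains were lower in treated mice within every subset, with log2 ratios of -0.94 (95% interval -1.01 to -0.88) in *Trem2*, -0.62 in *Cd5l*, -0.54 in *Cd300e*, -0.34 in *Ly6c2* and -0.16 (-0.24 to -0.09) in dendritic-like cells and -0.74 in cells of no subset. Weighted by the subsets of untreated mice, a choice made after seeing the data, the log2 ratio was -0.63. For *Cd80* the log2 ratio was -1.13 (-2.60 to 0.03) in *Cd5l*, -0.72 (-1.56 to 0.24) in *Trem2*, -0.02 (-0.31 to 0.27) in *Cd300e*, -0.03 (-0.43 to 0.36) in *Ly6c2* and -0.08 (-1.02 to 0.82) in dendritic-like cells and -0.10 (-0.27 to 0.08) in cells of no subset, all with intervals that include 0.

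In endothelial-like cells class II was near equal in treated and untreated mice. The chains were at 589 against 536 CPM, a log2 ratio of 0.14 (95% interval 0.10 to 0.17), and *Cd74* had 0.11 (0.09 to 0.14), where the median of all genes was 0.13 and the chains were 0.01 above it. *H2-Eb1* and *H2-DMa* were higher, with 2178 against 1502 and 965 against 766 UMIs, of 22630023 and 21011410 UMIs in the class. *H2-DMb1* and *Cd40* were lower, with log2 ratios of -0.23 (-0.30 to -0.16) and -0.24 (-0.37 to -0.11). *Cd80* at 5.08 against 0.904 CPM and *Cd86* at 11 against 2.86 were 2-fold higher, 2 of the 10 genes, as were 7.39% of all genes. The myeloid check markers were at 627 against 163 CPM, 5 of 5 higher. *Cd86* per UMI of these markers was 0.0176 (0.0155 to 0.020) in treated and 0.0175 in untreated endothelial-like cells, and 0.0149 (0.0126 to 0.0175) in free RNA of treated mice. In treated myeloid-like cells it was 0.0117 (0.0112 to 0.0122), below the interval of treated endothelial-like cells. *Irf1*, which can activate *Ciita*, was at 370 against 1446 CPM in these cells, while *Ciita* was at 7.82 against 7.19.

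Proximal tubule-like cells went the opposite way to myeloid-like cells. Their chains were at 1422 against 713 CPM, a log2 ratio of 1.00 (95% interval 0.88 to 1.11), and *Cd74* was at 4487 against 2084, a log2 ratio of 1.11 (1.04 to 1.17). *H2-Aa*, *H2-Eb1* and *Cd74*, 3 of the 7 genes with at least 20 UMIs, were 2-fold higher, as were 6.07% of all genes. Treated mice had 90 such cells and untreated mice 551. Their estimated share of free RNA was 18.0% against 11.8%, and the myeloid check markers were at 577 against 142 CPM, 5 of 5 higher. In cells without UMIs of these markers, 15 in treated and 340 in untreated mice, the log2 ratio of the chains was 1.00 (0.71 to 1.27). Such cells can still hold free RNA. With the estimated free RNA subtracted, the log2 ratio of the chains was 1.142, and the part of free RNA was not tested further.

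In podocyte-like cells of treated mice 8 of 9 genes were at least 2-fold higher than in untreated mice, against 5.99% of all genes. The chains were at 372 against 67.8 CPM, a log2 ratio of 2.46 (95% interval 2.27 to 2.65). The myeloid check markers were at 521 against 106 CPM, and there were 228 against 959 cells. Mesangial-like cells had *Cd86* at 6.73 against 2.54 CPM, the only 1 of 10 genes that was 2-fold higher (5.41% of all genes), with myeloid check markers at 489 against 188. Their chains had a log2 ratio of 0.10 (-0.02 to 0.22), where the median of all genes was 0.14. The part of myeloid RNA in both classes was not tested. In distal tubule-like cells the chains had -0.23 (-0.65 to 0.18).

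Genes whose levels were most like those of the class II chains were ranked by Pearson's r of log2(CPM + 1) over 26 pseudobulks, each a class of a library. These share libraries, so r describes them. Among 14265 genes, *H2-Ab1*, *H2-Eb1*, *Cd74*, *H2-Aa* and *H2-DMb1* took ranks 1 to 5, where the chains are part of the sum. *Ciita* was at rank 8 (r = 0.904), *H2-DMa* at 36, *Cd86* at 80, *Cd80* at 278 and *Cd40* at 1261 (r = 0.476). Outside the lists and gate markers, *Tgm2*, a transglutaminase, was first (r = 0.906), followed by *Cybb*, which is also a myeloid check marker, *C1qc*, *Gm20513*, *Adgre4*, *F10*, *Ace*, *Cd300ld*, *Clec4a3* and *Ms4a6d* (r = 0.869). *Gm20513* is annotated antisense over *H2-Eb1*, and reads of both cannot be told apart unless strand was counted, which the sources used here do not state.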

How the data were processed

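Glomeruli were isolated from mouse kidneys, dissociated and captured in droplets. The authors deposited UMI counts per gene for all barcodes, without a call of cells. Per the labels' processing notes, STAR, Cell Ranger and mm10 were used, and the methods and the file headers give different Cell Ranger versions. The study's own filters are not applied in these matrices. Of 32285 gene IDs, 32158 were found in GENCODE M21. The reference is of C57BL/6, whose H2 haplotype differs from that of MRL mice, and its effect on counting of class II genes was not tested.

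Barcodes with at least 1000 UMIs and at most 10% mitochondrial UMIs were kept. A cell passed a gate when its marker UMIs exceeded the 0.999 Poisson quantile of 0.5 times those expected from free RNA at its depth, with at least 2 markers found, and it took a class if it passed 1 of 11 gates. Of the markers, 149 were matched to a gene and 1 was not. Myeloid subsets needed at least 2 markers and 2-fold the mean share of the 3 libraries. No doublet caller was run. Ratios carry exact conditional binomial, levels exact Poisson and shares Clopper-Pearson intervals at 95%. A gene at 0 was set to 3 counts over the class. Background shares are of genes with at least 20 UMIs over both libraries. Likeness was ranked over pseudobulks of at least 50 cells and genes with at least 200 UMIs. Cells were thinned with seed 1. Libraries were grouped by their labels, and no test was made. Interval code was tested on simulated data. Genes named are all 10 genes, the 10 leading genes by likeness and examples from the lists, with counts for some lists and classes. The examples were chosen with their values known. The genes described and all lists and markers were chosen with earlier results of these data known. *Plvap*, *Vcam1* and the split of endothelial-like cells were added after seeing the data. The software was scipy 1.17.1, numpy 2.4.6, matplotlib 3.10.9 and pandas 2.3.3 in Python 3.11.15. Alternatives were other UMI, gene and mitochondrial limits, looser and stricter gates, subtraction of free RNA, thinning and other scalings. An item withheld for evaluation is left out.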

Additional observations from a re-analysis of the deposited data

Results flagged for a closer look

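The summed class II chains went opposite ways between treated and untreated MRL/lpr mice, with a log2 ratio of -0.805 in myeloid-like and 0.995 in proximal tubule-like cells. *Cd74* went opposite ways between untreated MRL/lpr and control mice, with a log2 ratio of -0.255 in myeloid-like and 5.369 in endothelial-like cells. Each group is 1 library, and the difference between the classes was not tested.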

How the results depend on the processing

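Under every alternative run the class II chains kept their direction in myeloid-like, endothelial-like and proximal tubule-like cells, and 2 of the 10 genes stood above free RNA in endothelial-like cells of untreated MRL/lpr mice with profiles of 1 to 100 and of 1 to 50 UMIs. Myeloid-like cells of no subset, with a log2 ratio of -0.392 for untreated MRL/lpr over control mice, were not run alone as an alternative. The log2 ratio of untreated MRL/lpr over control mice ran from 0.120 to 1.649 in myeloid-like cells. It was 0.308 with the stricter gate, 0.383 with cells of several gates kept, 0.255 with free RNA subtracted, 0.561 after thinning, 0.120 with the median ratio set to 1, 0.621 without dendritic-like cells and 1.649 in both monocyte subsets alone. For treated over untreated mice it was -0.766 from 2000 UMIs, -0.774 with 200 to 3000 genes, -0.653 with the stricter gate, -0.763 with several gates kept, -0.838 with free RNA subtracted, -0.873 after thinning, -0.739 with the median set to 1 and -0.627 with subsets weighted. In endothelial-like cells it was 2.690 with the stricter gate, 2.605 with free RNA subtracted and 2.874 after thinning over control, and 0.174 with free RNA subtracted, 0.011 with the median set to 1 and 0.060 in cells without myeloid check UMIs for treated over untreated mice. In proximal tubule-like cells it was 5.854 with a mitochondrial limit of 5% and 5.215 after thinning over control, and 1.336 with that limit, 0.769 with 200 to 3000 genes and 1.142 with free RNA subtracted for treated over untreated mice. Other causes than the settings' own construction were not tested. The alternatives in proximal tubule-like cells, the weighting and choice of subsets and the removal of cells with myeloid check UMIs were chosen after seeing the data. No paired analysis was possible because each group has 1 library, and for the same reason no library could be left out.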
